A study of Mus musculus with 2 samples.

Results

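The genes described here are the estrogen receptors and estrogen-related receptors of the mouse, with a few of the proteins that work with them: Esr1, Esr2, Gper1, Esrra, Esrrb, Esrrg, Ncoa1, Ncoa2 and Fkbp5. They were chosen by name, through Entrez gene ID, as candidate receptors for bisphenol A (BPA) and their main coregulators, and all 9 have a row among the 44002 rows of the deposited table. Testis poly(A) RNA of BALB/c mice, taken at postnatal day 45, was sequenced in 1 library from animals labelled as exposed to BPA and 1 library from control animals, whose label carries no treatment. Per the labels, material of 3 samples was mixed into each library. The sources used here give neither the dose, route and duration of exposure nor whether the mixed samples came from separate animals. With 1 library per group, no value below has a replicate check, and no test between the conditions was made.

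BPA is a plastics monomer with weak estrogen-like activity. The estrogen receptors alpha (Esr1) and beta (Esr2) are nuclear receptors that bind estradiol and then DNA at estrogen response elements, and Gper1 is a G protein-coupled receptor through which estrogens can signal at membranes. The estrogen-related receptors (Esrra, Esrrb and Esrrg) resemble them in sequence but do not bind estradiol; they act without a known natural hormone, largely on genes of energy metabolism, and ERR gamma, the product of Esrrg, binds BPA tightly in vitro. Ncoa1 and Ncoa2 encode p160 coactivators, which dock on ligand-bound receptors and bring in histone acetyltransferases. Fkbp5 encodes a co-chaperone of HSP90 that holds steroid receptors in their unbound state, and its gene is itself switched on by androgens, glucocorticoids and progestins. In the testis, estrogen signalling is known for its part in Leydig cells and in the ducts that drain sperm fluid, and androgen signalling for its part in Sertoli cells.

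Levels are given in CPM, read counts scaled to a common total per library. Deposited values under 1 CPM are written as 0; for Esr2, Esrrg and Gper1 the reads behind those zeros were recovered from the deposited fold change and p-value together. The CPM scale stands for 45377693 reads in all with BPA, each worth 0.0220 CPM, and for 41801885 reads in the control, each worth 0.0239 CPM. The reads listed or recovered over all rows sum to 45314850 with BPA and 41849684 in the control, so the deposited scale is not exactly the sum of the rows. Fold differences are ratios of CPM, BPA over control, with 95% Clopper-Pearson bounds (exact binomial) from the reads. A level has an exact 95% Poisson interval. All intervals cover counting error only, not the spread between animals or library preparations. Calls needed a log2 ratio of at least 1 in size (2-fold) with 0.1 CPM added to each level, and at least 1 CPM in whichever library was higher.

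None of the 9 genes was called. Of the 6 at the floor of 1 CPM (Esr1, Esrra, Esrrb, Ncoa1, Ncoa2 and Fkbp5), 0 were higher and 0 were lower with BPA. Among all 19389 genes at the floor, 1.32% were called higher and 1.95% lower, so a count of 0 out of 6 lies near the background. The median log2 ratio of the 6 was -0.03, beside 0.00 for all genes at the floor. The 3 genes under the floor, Esr2, Esrrg and Gper1, were not open to a call. None of the 9 is among the 28 genes of the authors' deposited lists, and the authors' deposited table gives each of them a q-value of 0.99996.

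**Figure D1:**
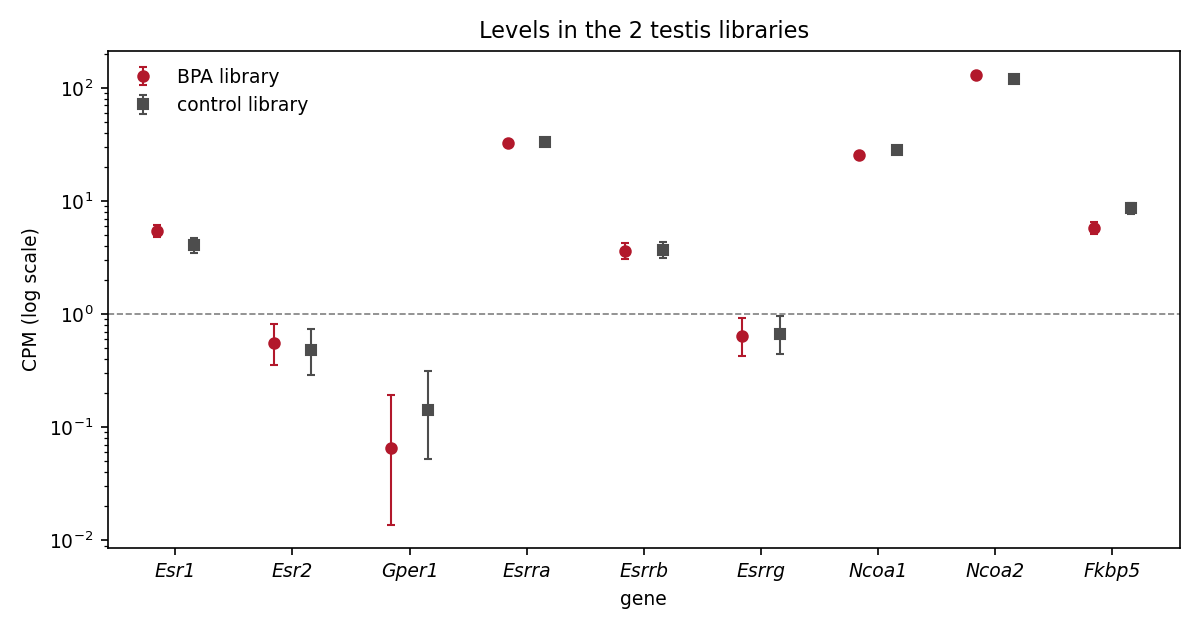
CPM (log scale) of each gene with BPA (red circles) and in the control (grey squares), 1 library each, with exact 95% Poisson intervals of the reads. Esr2, Gper1 and Esrrg lie under the dashed line at 1 CPM, and Ncoa2 lies highest at 131 and 120 CPM.

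Counting error alone is a narrower yardstick than 2-fold, and it separates the 6 genes. The interval of the ratio lay above 1 for Esr1 and Ncoa2, below 1 for Ncoa1 and Fkbp5, and included 1 for Esrra and Esrrb. Across all genes at the floor, 21.8% had an interval above 1 and 21.3% below 1, together 43.1%. A ratio past counting error was therefore common between these libraries.

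Esr1 was the main nuclear estrogen receptor transcript in both libraries. It had 246 reads or 5.42 CPM with BPA (4.76 to 6.14) and 171 reads or 4.09 CPM in the control (3.50 to 4.75). Its level with BPA was 1.33-fold that in the control (1.09 to 1.62). Among the 3357 genes with a mean of 4 to 10 CPM, from the 5th to the 95th percentile the log2 ratio ran from -0.50 to 0.50, and that of Esr1, 0.40, lay inside this range. In a whole testis, more cells that express a gene and more RNA per cell cannot be told apart. Markers of Leydig cells and of peritubular and smooth muscle cells, both known to express Esr1, mostly lay above 0 as well. Above 0 were 11 of 12 Leydig markers (median log2 ratio 0.19) and 7 of 8 peritubular and smooth muscle markers at the floor (0.09). In other somatic lists, 13 of 15 Sertoli, 5 of 8 macrophage, 2 of 8 endothelial and 0 of 9 adipocyte markers at the floor lay above 0. The Leydig markers summed to 1145 CPM with BPA and 1043 CPM in the control, and the peritubular markers to 546 and 517 CPM. The part of any of these cell types in the Esr1 ratio was not tested.

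Esr2 was detected at low counts, with 25 reads or 0.551 CPM with BPA (0.357 to 0.813) and 20 reads or 0.478 CPM in the control (0.292 to 0.739). The ratio was 1.15 (0.614 to 2.19), an interval that holds both equality and a 2-fold difference, so at this depth a 2-fold rise was not separable from no difference. Gper1 had 3 reads or 0.0661 CPM with BPA and 6 reads or 0.144 CPM in the control, with a ratio of 0.461 (0.0745 to 2.16). At such counts the libraries cannot show a direction for Gper1. Per kilobase of the union of exons, Esr1 stood 2.43-fold above Esr2 with BPA (1.605 to 3.82) and 2.11-fold above it in the control (1.32 to 3.54). The size of this ratio depends on the length used. Per kilobase of the longest transcript of each it was 5.22 with BPA (3.45 to 8.22) and 4.53 in the control (2.85 to 7.61). Esr1 and Esr2 together had 5.97 CPM with BPA and 4.57 CPM in the control, a ratio of 1.31 (1.08 to 1.58), which rests on Esr1 with 90.8% of the reads with BPA and 89.5% in the control.

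The ratios of the estrogen-related receptors were near 1, though for Esrrg this rests on few reads under the floor. Esrra, known for its control of mitochondrial genes, had 1479 reads or 32.6 CPM with BPA and 1389 reads or 33.2 CPM in the control, with a ratio of 0.981 (0.911 to 1.06). Esrrb, known for its role in pluripotent and trophoblast cells, had 164 reads or 3.61 CPM with BPA and 155 reads or 3.71 CPM in the control, with a ratio of 0.975 (0.778 to 1.22). Esrrg, whose product binds BPA, had 29 reads or 0.639 CPM with BPA and 28 reads or 0.670 CPM in the control, with a ratio of 0.954 (0.548 to 1.66). All 3 ratios were below 1, each by less than its counting error. The family summed to 36.8 CPM with BPA and 37.6 CPM in the control, and Esrra took 88.5% of its reads with BPA and 88.4% in the control. Reads of Esrra carry a small uncertainty, since 3.74% of its exon sequence overlaps the opposite-strand gene Trmt112 or the microRNA gene Mir6990, and the counting is not stated to use strand.

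On GRCm38, Esr1 spans chromosome 10 from 4611989 to 5005633 and Esr2 chromosome 12 from 76120419 to 76177259, with Esrrb on the same chromosome from 86361117 to 86521628 and Ncoa1 from 4247362 to 4477206. Gper1 spans chromosome 5 from 139423150 to 139427800, and Esrra chromosome 19 from 6910977 to 6922048. Esrrg and Ncoa2 are on chromosome 1, from 187608510 to 188214885 and from 13139105 to 13374227. Esr1, Gper1, Esrrb and Esrrg are on the plus strand and the others on the minus strand. Words of 50 bases shared with other loci made up at most 0.684% of a gene's exon sequence (Fkbp5).

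Levels of different genes can be set side by side only per length. Divided by the union of their annotated exons, the order with BPA was Ncoa2 (8.37 CPM per kilobase), Esrra (7.43), Ncoa1 (2.95), Fkbp5 (0.607), Esrrb (0.598), Esr1 (0.397), Esr2 (0.164), Esrrg (0.103) and Gper1 (0.0261). In the control library Ncoa2 stood at 7.65 CPM per kilobase, Esrra at 7.57, Ncoa1 at 3.31, Fkbp5 at 0.907, Esrrb at 0.613, Esr1 at 0.299, Esr2 at 0.142, Esrrg at 0.108 and Gper1 at 0.0566, the same order. By this length, some neighbours in that order did not differ beyond counting error. Ncoa2 over Esrra was 1.01 in the control (0.951 to 1.07), and Fkbp5 over Esrrb was 1.02 with BPA (0.833 to 1.24). Esr2 over Esrrg was 1.59 with BPA (0.892 to 2.81) and 1.32 in the control (0.703 to 2.42). Esrra stood 18.7-fold above Esr1 with BPA (16.3 to 21.5) and 25.3-fold above it in the control (21.6 to 29.8), and 12.4-fold above Esrrb in both (10.6 to 14.7 with BPA and 10.5 to 14.7 in the control). The order of Esrrb and Esr1 depends on the length used. By the union of exons Esrrb was 1.51-fold above Esr1 with BPA (1.23 to 1.84). By the longest transcript of each the ratio was 0.983 (0.802 to 1.20). By that length Fkbp5 over Esrrb was 1.77 with BPA (1.45 to 2.17) and Ncoa2 over Esrra 1.10 in the control (1.03 to 1.16). Both then differed beyond counting error. Esr2 over Esrrg still did not, at 1.38 with BPA (0.774 to 2.44) and 1.14 in the control (0.610 to 2.10).

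Of the coactivators, Ncoa2 had the highest CPM of all members, while Ncoa1 lay below Esrra in both libraries. The coactivators went in opposite directions by small amounts. Ncoa2, whose loss in mice impairs male fertility, had 5942 reads or 131 CPM with BPA and 5000 reads or 120 CPM in the control, a ratio of 1.09 (1.05 to 1.14). Ncoa1 had 1148 reads or 25.3 CPM with BPA and 1187 reads or 28.4 CPM in the control, a ratio of 0.891 (0.821 to 0.967). Per kilobase of the union of exons, Ncoa2 stood 2.84-fold above Ncoa1 with BPA (2.66 to 3.03). In the control it stood 2.31-fold above Ncoa1 (2.17 to 2.46), and these intervals do not overlap. By the longest transcript of each the ratio was 4.64 with BPA (4.36 to 4.95) and 3.78 in the control (3.55 to 4.03). For scale, the log2 ratio of genes with a mean of at least 100 CPM ran from -0.16 at the 5th to 0.14 at the 95th percentile, and that of Ncoa2 was 0.13. For genes with a mean from 10 to 100 CPM it ran from -0.27 to 0.30, and that of Ncoa1 was -0.17. Both coactivators therefore lay inside the spread of genes at their level.

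**Figure D2:**
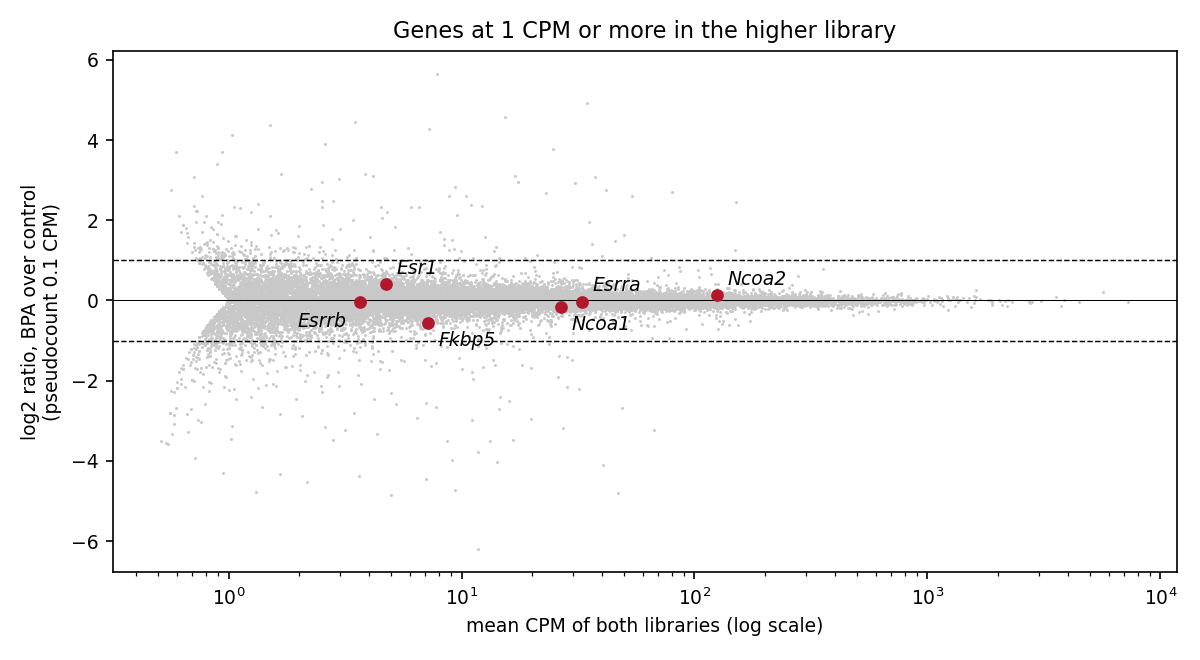
Log2 ratio of BPA over control (pseudocount 0.1 CPM) against the mean CPM of both libraries (log scale) for the 19389 genes at the floor (grey), with the 6 described genes at the floor in red and dashed lines at 2-fold. The 6 lie between -0.57 (Fkbp5) and 0.40 (Esr1).

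Fkbp5 differed most of the 6. It had 261 reads or 5.75 CPM with BPA (5.08 to 6.49) and 359 reads or 8.59 CPM in the control (7.72 to 9.52). The ratio was 0.670 (0.569 to 0.788), that is 1.49-fold lower with BPA, and the Poisson intervals of both levels did not overlap. Its log2 ratio of -0.57 lay below the 5th percentile, -0.50, of genes with a mean of 4 to 10 CPM. With 2-fold as the rule Fkbp5 was not called.

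Fkbp5 lies on chromosome 17 (GRCm38, 28398753 to 28486149, minus strand) among genes that differed far more. Within 1 Mb of it, 4 of 35 genes at the floor were called higher and 5 lower, 25.7%, against 3.28% of all genes. The nearest of these with an established name, on either side, were Armc12, needed for the mitochondrial sheath of sperm, 44.7 kb away with 3.15 CPM with BPA and 90.7 CPM in the control, and Rpl10a, a ribosomal protein gene, 67.7 kb away with 12.6 and 4.26 CPM. Further called genes in the window were Srpk1 (2.07-fold higher), Cpne5 (2.03-fold higher), Nudt3 (6.53-fold higher), Zfp523 (5.39-fold lower), Pacsin1 (5.37-fold lower), Snrpc (17.4-fold lower) and 1 gene with a clone name (4.24-fold lower). The differences went in both directions, and the median log2 ratio of the 35 genes was -0.02. Of the words of 50 bases in Rpl10a, 20.8% also occur at other loci, so its reads are uncertain, and exons of Nudt3, Zfp523, Rpl10a and Cpne5 overlap another annotated gene. Whether the Fkbp5 difference belongs with that of its neighbours was not tested.

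**Figure D3:**
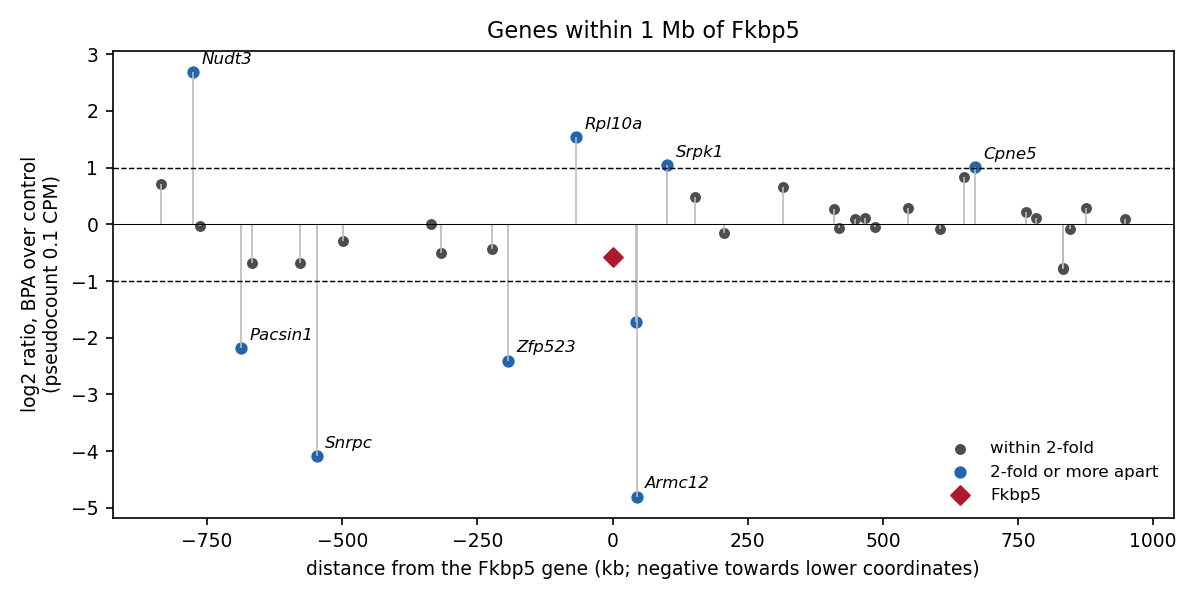
Log2 ratio of BPA over control (pseudocount 0.1 CPM) for genes at the floor within 1 Mb of Fkbp5, against their distance from it in kb, 1 library per group. Of 35 neighbours, 9 lie past the dashed lines at 2-fold (blue), 4 higher and 5 lower, while Fkbp5 (red diamond) lies at -0.57.

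Around the other members a smaller share of neighbours was called than around Fkbp5. It was 8.33% around Esr1, 5% around Esrra, 3.23% around Esrrb and 9.09% around Esrrg, against 3.28% of all genes. Around Esrra 3 of 60 genes at the floor were called, all lower: Majin (2.05-fold), Atg2a (3.26-fold) and Cdc42bpg (2.28-fold), each more than 500 kb away. Esr1, Esrrb and Esrrg had 1 called neighbour each of 12, 31 and 11, all 3 with clone names and all lower, and Esr2, Gper1, Ncoa1 and Ncoa2 had 0 of 16, 27, 26 and 7. As a description of level, the named gene nearest to each member in log2 CPM over the 2 libraries was Katnbl1 for Esr1, Mrpl2 for Esrra, Tmem201 for Esrrb, Carf for Ncoa1, App for Ncoa2 and Trmt44 for Fkbp5. The distances were 0.02 or less on the log2 scale, except 0.07 for Fkbp5, and over only 2 libraries they say little about a shared pattern.

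In the wider set of partner, sister and target genes most lay within 2-fold and a few lay far apart. Across 8 lists of 186 genes, 166 were at the floor, of which 1 was called higher and 4 lower, 3.01% against 3.28% of all genes, and their median log2 ratio was 0.03. The lists were other coactivators, corepressors, receptor chaperones, other nuclear and membrane receptors, estrogen-responsive genes, androgen-responsive genes, targets of the estrogen-related receptors, and enzymes of sex steroid synthesis and inactivation.

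Among 32 other coactivators, Pelp1, a scaffold that links estrogen receptors to kinases, was 6.12-fold lower, with 1.98 CPM with BPA and 12.1 CPM in the control (interval of the ratio 0.129 to 0.205), and the other 31 lay within 2-fold. The list's median log2 ratio was -0.02. Among 19 corepressors and their partners at the floor, Gps2, a subunit of the NCoR complex, had 12.8 CPM with BPA and 121 CPM in the control, and Mta1, a subunit of the NuRD complex that represses estrogen receptor activity, had 31.0 and 3.92 CPM. Both are in the authors' deposited lists. The other 17 lay within 2-fold, with a median over all 19 of 0.00. All 20 chaperones of steroid receptors lay within 2-fold, with a median of 0.02. The chaperone with the largest log2 ratio was Unc45a at 0.35, followed by Ppid at 0.15 and Sgta at -0.14, and 526 of 4778 words of 50 bases in Ppid also occur at other loci.

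Of 23 other receptors at the floor, Rxrb, a retinoid X receptor that pairs with many nuclear receptors, was called lower, with 14 reads or 0.309 CPM with BPA and 75 reads or 1.79 CPM in the control. The thyroid hormone receptor genes Thra (log2 ratio -0.44) and Thrb (0.34) lay within 2-fold, and 5.70% of the exon sequence of Thra overlaps the opposite-strand gene Nr1d1. The median of the list was -0.01. Of 16 estrogen-responsive genes at the floor, 8 lay above 0 and 8 below, with a median of 0.01. The keratin gene Krt19 was called lower, on 7 reads with BPA and 44 in the control; Gata3 stood at a log2 ratio of 0.44, Igfbp4 at -0.43 and Sult1e1, which inactivates estrogens, at -0.40. Of 20 targets of the estrogen-related receptors at the floor, 0 were called and the median was -0.01. Pdk4, a kinase that restrains pyruvate use, had the largest ratio of that list, with 1.45 CPM with BPA and 2.87 CPM in the control, a log2 ratio of -0.93. Next in size were Idh3a, a subunit of a citric acid cycle enzyme, at 0.26 and the growth factor gene Vegfa at -0.25.

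Most androgen-responsive genes stood slightly higher with BPA. Of 19 at the floor, 15 lay above 0 and 0 were called, with a median log2 ratio of 0.16. Rhox5, a homeobox gene of Sertoli cells, had 5.33 CPM with BPA and 3.73 CPM in the control (ratio 1.43, 1.16 to 1.76), the kinase gene Sgk1 had 6.68 and 4.83 CPM (1.38, 1.15 to 1.66), and Cldn11, a claudin of the Sertoli cell barrier, had 4331 and 3136 reads (1.27, 1.21 to 1.33). Fkbp5, which androgens also induce, went the other way. Markers of Sertoli cells, which respond to androgens, lay above 0 in 13 of 15 genes with a median of 0.19. They summed to 1588 CPM with BPA and 1419 CPM in the control. Of the 15, 1 was called, namely Rhox8, which was lower with BPA. The part of Sertoli cell RNA in the androgen-responsive list was not tested.

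Of 17 genes of sex steroid synthesis and inactivation at the floor, 13 lay above 0 and 0 were called, with a median of 0.08. Hsd3b6, a dehydrogenase of adult Leydig cells, had 41.4 CPM with BPA and 23.6 CPM in the control, and Shbg, which encodes the carrier of sex steroids, had 9.19 and 5.57 CPM. Hsd17b2, which inactivates estradiol, had a log2 ratio of -0.52 on 35 reads with BPA and 48 in the control. Of the words of Hsd3b6, 15.7% occur at other loci. Leydig cell markers lay above 0 in 11 of 12 genes with a median of 0.19, and Cyp11a1, Cyp17a1, Hsd3b1, Hsd3b6 and Hsd17b3 are in both lists, so the lists are not independent. The part of Leydig cell RNA in the steroid synthesis list was not tested.

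**Figure D4:**
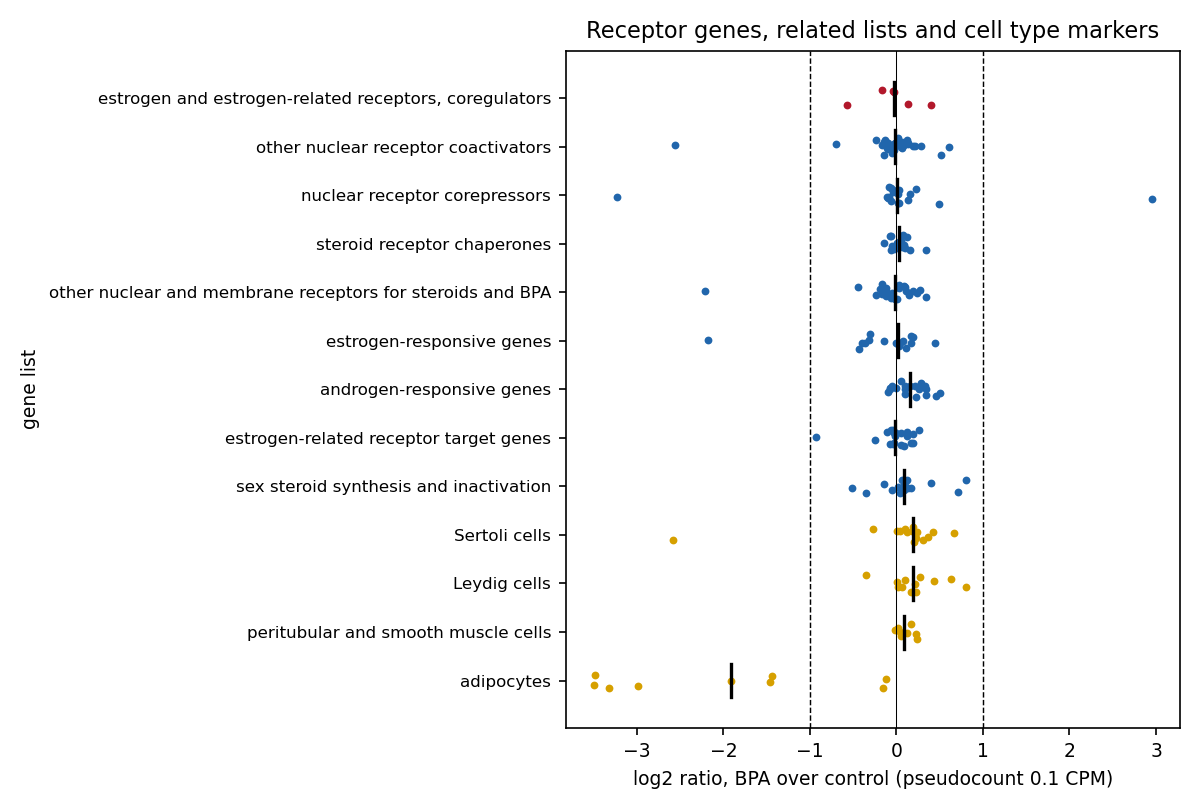
Log2 ratio of BPA over control (pseudocount 0.1 CPM) of each gene at the floor in the described set (red), in 8 related lists (blue) and in 4 lists of cell type markers (yellow), with the median of each list as a black bar and dashed lines at 2-fold. The described set has its median at -0.03, androgen-responsive genes at 0.16, Sertoli cells at 0.19, Leydig cells at 0.19 and adipocytes at -1.91.

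The shares of called neighbours around the 5 called genes of these lists varied. Within 1 Mb, 14 of 65 neighbours at the floor were called around Pelp1, 12 of 77 around Gps2, 4 of 27 around Mta1, 8 of 51 around Rxrb and 2 of 39 around Krt19. These are 21.5%, 15.6%, 14.8%, 15.7% and 5.13%, against 3.28% of all genes. Pelp1 and Gps2 lie on chromosome 11 within 1 Mb of each other, so their windows share genes, each counts the other, and they are not separate observations. Shbg and the macrophage marker Cd68 also lie within 1 Mb of both. Whether their ratios belong with those of this stretch was not tested. Adipocyte markers differed between the libraries too, with 7 of 9 at the floor lower, 0 higher and sums of 27.3 CPM with BPA and 86.3 CPM in the control. Their median log2 ratio was -1.91, and it depended on the settings: -2.99 with a floor of 4 CPM and -3.47 with listed zeros as 0. Igfbp4, Sult1e1 and Pdk4 are also expressed in fat, and the part of adipocyte RNA in their ratios was not tested. Nor was its part in the lower level of Fkbp5 tested.

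None of the members of the remaining marker lists was called. Their medians were -0.05 for endothelial cells, 0.05 for macrophages, 0.07 for spermatogonia, 0.01 for spermatocytes, 0.02 for elongating spermatids and -0.01 for round spermatids. The markers of elongating spermatids summed to 24717 CPM with BPA and 23640 CPM in the control. In endothelial cells 2 of 8 markers lay above 0, with Kdr at -0.24 and Cdh5 at 0.20; in macrophages 5 of 8 did, with Cd68 at -0.41 and C1qc at 0.33. In spermatogonia Utf1 stood at -0.80 and Stra8 at 0.42, in spermatocytes Sycp3 at -0.17 and Ovol1 at -0.16, in round spermatids Tssk1 at -0.37 and Tssk2 at 0.09, and in elongating spermatids Prm1 at 0.27 and Tnp2 at 0.22. In the lists tied to the receptors, the largest log2 ratios were those of Rhox8 (-2.58) and Fshr (0.67) in Sertoli cells, Hsd3b6 and Ptgds (0.63) in Leydig cells, Acta2 (0.24) and Myh11 (0.23) in peritubular cells, and Fabp4 and Cidec (-3.50 and -3.49) in adipocytes. Of 9 epididymal markers 1 was at the floor, Wfdc10 at 0.68, so that its value stands for the whole list. Lcn9, Adam7, Rnase10 and Spint4 were listed at 0 in both libraries, and Lcn5 and Lcn8 have a row without a value.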

How the data were processed

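The submitters' processing notes name build mm10, HISAT2 2.0.4 and HTSeq 0.6.1. The sources used here do not name the annotation, the strand setting or how p-values were made. The columns the authors deposited are headed as read counts but hold CPM, which sum to 995266 (BPA) and 997834 (control), with values under 1 written as 0. The deposited table also holds the authors' log2 fold change of BPA over control, a p-value and a q-value.

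Listed CPM values are whole multiples of 1 read (largest distance 2.33e-10 of a read). Where 1 library was listed at 0, its reads followed from the fold change (1404 rows, largest distance from a whole read 0.00156). Where both were, the fold change limits the pair of whole reads, and the pair was taken whose p-value, under the MA-plot random sampling model applied to CPM, was nearest to the deposited one. This resolved 9891 of 9897 rows, with gaps of at most 1.0e-05, and returned 1575 of 1575 pairs in rows with listed low values. The fold change alone allowed 9 pairs for Esr2, 20 for Gper1 and 1 for Esrrg; with the p-value 1 pair was left for each, and the next pair lay 0.00552 (Esr2) and 0.0207 (Gper1) from the deposited p-value. Both steps were tested on simulated data. The simulated p-values came from the same sampling model, so this test could not show that the deposited p-values follow that model. Neither the limit at 1 CPM nor this recovery was foreseen in the design, and the recovery was added after the data were seen.

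Symbols and positions came from RefSeq for GRCm38, the build mm10 names (40269 of 41571 numeric IDs matched), and exon lengths, overlaps and shared words of 50 bases from GENCODE M21. With 1 library per group no count model was fitted. The members and lists were chosen with earlier results of these data known. Named genes are all members; in each related list every called gene, or else the 3 with the largest log2 ratio in size; in each marker list the largest 2 and markers at 0 in both; called neighbours within 1 Mb without clone names; and the nearest gene in level. Genes named beyond this rule, namely Thra, Thrb, Gata3, Igfbp4, Sult1e1 and the receptors under the floor, were chosen after their values were seen. Alternatives covered scaling, pseudocount, floor, fold, listed zeros and transcript length. Python 3.11.15, numpy 2.4.6, scipy 1.17.1, pandas 2.3.3 and matplotlib 3.10.9 were used.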

Additional observations from a re-analysis of the deposited data

How the results depend on the processing

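The log2 ratios of the 9 genes were recomputed with other scalings, pseudocounts, floors or listed zeros taken as 0. All 59 values stayed inside the counting intervals of the genes, but part of them were fixed in advance. A floor does not enter a gene's log2 ratio. Listed zeros taken as 0 leave genes with listed levels unchanged and set Esr2, Gper1 and Esrrg to 0. Only the scalings and pseudocounts were free to move a ratio. The log2 ratio of Esr1 ran from 0.33 to 0.41 and that of Fkbp5 from -0.58 to -0.51. Scaling by the median ratio or by a trimmed mean of log ratios lowered BPA levels by 0.0042 and 0.0028 on the log2 scale. Because the pseudocount is added after scaling, these scalings shifted the log2 ratios of genes with low levels by less. No paired analysis was possible because each group has 1 library, and no library could be left out. The main counts were 256 genes higher and 379 lower over all genes, 1 and 4 in the related lists, and 0 and 8 among the markers. All genes gave 82 higher and 123 lower with a pseudocount of 1 CPM, 80 and 103 once the floor was 4 CPM, 875 and 1203 without any floor, 686 and 937 with listed zeros as 0, 828 and 1042 at 1.5-fold, 55 and 85 at 4-fold, and 100 and 162 if the bound nearer to 1 had to reach 2-fold. With an interval leaving out 1 as the rule, added after the data were seen, the counts were 4227 and 4138 over all genes, 2 and 2 among the members, 42 and 38 in the related lists and 38 and 25 among the markers. In the related lists 2 were lower with a floor of 4 CPM, 2 higher with no floor and 4 higher at 1.5-fold. Of the markers 4 were higher at 1.5-fold and 5 lower at 4-fold. The cause of these shifts was not tested beyond what each setting changes. The adipocyte median of -1.91 was -1.35 with a pseudocount of 1 CPM, -2.99 with a floor of 4 CPM and -3.47 with listed zeros as 0, and the epididymal median of 0.68 was 0.42 without a floor. With the longest transcript in place of the union of exons, levels per kilobase moved past counting error for 6 of 9 genes. Depth limits Esr2, Esrrg and Gper1, whose intervals hold equality. That of Gper1 (0.0745 to 2.16) reached 2-fold in both directions and that of Esr2 (0.614 to 2.19) upwards only. That of Esrrg (0.548 to 1.66) reached it in neither.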

Other observations

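The deposited p-values follow from the deposited CPM. In the 17978 rows with both values above 0 they equal, within 0.000285, the p of the MA-plot random sampling model with CPM entered in place of reads, and 1 read is worth 0.0220 CPM with BPA and 0.0239 CPM in the control. Fkbp5 had 261 reads with BPA and 359 in the control; the authors' deposited table gives it a p-value of 0.455, while the counting interval of its ratio, 0.569 to 0.788, leaves out 1. For Esr1 the authors' deposited table gives 0.663, beside an interval of 1.09 to 1.62, and for Ncoa2 0.462, beside 1.05 to 1.14.

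Of the 28 other receptors, 5 were under the floor. Nr2f1 was listed at 0 in both libraries, and Pgr has a row without a value. Nr1i2, the pregnane X receptor gene, had 11 recovered reads with BPA and 25 in the control, a ratio of 0.405 (0.180 to 0.854). Nr1i3, the constitutive androstane receptor gene, had 13 and 2, a ratio of 5.99 (1.36 to 54.7), and Nr5a2 had 2 and 11, a ratio of 0.167 (0.0180 to 0.767). Of the exon sequence of Nr1i3, 74.9% overlaps the opposite-strand gene Tomm40l, so its reads are uncertain.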
